A study of Mus musculus with 33 samples.

Results

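Promoter-distant H3K27ac peaks of mouse pro-B cells were the regions of this account. They were taken from a list of 17935 H3K27ac peaks called in 1 ChIP-seq library and placed on the mm9 genome build. A peak was counted as promoter-distant when it was shorter than the 95th percentile of peak length, which was 7800 bases after rounding and kept peaks of up to that length, and when no base of it came within 1 kb of the start of a protein-coding gene. The rule left 8528 peaks, 47.55% of the list (95% Wilson interval 46.82 to 48.28, counting error only). Another 8510 peaks lay within 1 kb of a gene start and are called promoter peaks here, and the remaining 897 peaks, called the longest domains, were at or above the length limit, 500 of them more than 1 kb from a gene start. The rule read length and distance to a start from the same peak list, so both are given as descriptions.

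The study compared the folding of the Igh and Igk loci and their V gene recombination between pro-B and pre-B cells by VDJ-seq, chromosome contact mapping and ChIP-seq. The H3K27ac library came from bone marrow pro-B cells of C57BL/6 mice of the genotype Rag1(Cre/Cre), in which both copies of Rag1, which encodes a subunit of the V(D)J recombinase, carry Cre. The cells were isolated by flow sorting directly from the animals and the chromatin was precipitated with an H3K27ac antibody from Abcam. There was 1 such library and no replicate, input or control peak list was analysed here, the number of animals behind it was not given in the sources used here, and the peak list carries neither read counts nor heights, since its score was 0 for every peak. The depth behind each peak is therefore unknown, a missing peak may be a peak below the threshold of the authors, and no value below has a spread between samples except the V gene use at the end. That came from 6 Igk VDJ-seq libraries of sorted bone marrow pro-B cells of C57BL/6 mice of the genotype Wapl(+/+), which the labels number as separate experiments without saying which came from separate animals.

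H3K27ac, the acetylation of lysine 27 on histone H3, marks active promoters and active enhancers. Enhancers are stretches of DNA that bind transcription factors and raise the transcription of genes that may lie far away, and in B cell progenitors many of them are bound by PU.1 of the ETS family, the E-box factor E2A, EBF1, Pax5, Ikaros, RUNX1 and FOXO1. The mark alone does not show which gene an enhancer serves, so a gene named beside a peak below is the one with the nearest start and no more.

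The label of the library was checked against marker genes by the presence of any H3K27ac peak within 1 kb of the gene start, which 45.6% of all 22380 protein-coding genes had. A peak at the start was found for 11 of 12 pro-B markers, among them Cd79a, Pax5, Ebf1, Vpreb1, Vpreb3, Igll1, Dntt, Il7r, Kit and Blnk, with Cd79b as the exception. None of 6 T and NK cell markers (Cd3e, Cd3d, Cd4, Cd8a, Gata3 and Bcl11b) had one, and of 6 myeloid markers Cebpa had one whereas Csf1r, Mpo, Elane, Itgam and Lyz2 had none. In the wider lists of these lineages, 2 of 20 T and NK cell genes (Cd5 and Tcf7) and 2 of 18 myeloid genes (Cebpa and Cebpb) had one. Of 4 erythroid markers, however, Klf1, Hbb-b1 and Alas2 had a peak at the start and Gata1 had none. In the wider list of erythroid and megakaryocyte genes, 11 of 15 had a peak at the start, among them the globin gene Hba-a1, the red cell membrane gene Slc4a1 and the erythropoietin receptor gene Epor, and 8 of 15 had one of the longest domains within 50 kb, as 7.88% of all protein-coding genes had. In the wider lists of B cell genes, 13 of 20 pro-B transcription factors and 15 of 19 genes of the pre-BCR and the B cell surface had a peak at the start, and 5 of 20 and 6 of 19 had a longest domain within 50 kb. The erythroid list thus exceeded the transcription factor list by both counts and both lists in its share with a longest domain. Genes that define red cell precursors thus carried H3K27ac in the library labelled pro-B, and since the peak list holds no heights the amount could not be compared with that at the B cell genes. The part of erythroid chromatin in the results below was not tested, and the values for erythroid genes stand beside those of the other lists.

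Before the values, the central 300 bases of 6 promoter-distant peaks are shown, to let the sequence of such elements be seen beside the counts of motif letters. They were picked from 112 peaks nearest to genes of the B cell lists or lying in immunoglobulin loci, as those with the most kinds of 8 short B cell motif spellings, at most 1 for each gene. Of the 112 stretches, 41 held none of the 8 spellings, 47 held 1 kind, 17 held 2, 6 held 3 and 1 held 4, so the stretches shown are the richest and not the typical ones. All were read from the plus strand of mm9, from 5′ to 3′, and capitals mark the letters of a match on either strand.
Peak downstream of Hmgb2, chr8:60056268-60056567: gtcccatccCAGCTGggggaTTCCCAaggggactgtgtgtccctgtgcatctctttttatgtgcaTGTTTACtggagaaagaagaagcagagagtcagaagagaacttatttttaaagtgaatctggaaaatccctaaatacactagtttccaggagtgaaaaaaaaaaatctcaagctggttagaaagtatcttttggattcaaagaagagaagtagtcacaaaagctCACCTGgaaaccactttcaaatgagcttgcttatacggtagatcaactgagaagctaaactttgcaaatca
Peak upstream of Mcl1, chr3:95456076-95456375: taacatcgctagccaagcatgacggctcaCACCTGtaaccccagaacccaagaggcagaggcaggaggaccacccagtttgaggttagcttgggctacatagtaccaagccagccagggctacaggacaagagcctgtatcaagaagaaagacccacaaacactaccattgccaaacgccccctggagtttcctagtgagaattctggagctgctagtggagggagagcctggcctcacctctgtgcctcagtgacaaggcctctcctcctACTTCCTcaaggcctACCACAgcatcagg
Peak upstream of Runx1, chr16:92868425-92868724: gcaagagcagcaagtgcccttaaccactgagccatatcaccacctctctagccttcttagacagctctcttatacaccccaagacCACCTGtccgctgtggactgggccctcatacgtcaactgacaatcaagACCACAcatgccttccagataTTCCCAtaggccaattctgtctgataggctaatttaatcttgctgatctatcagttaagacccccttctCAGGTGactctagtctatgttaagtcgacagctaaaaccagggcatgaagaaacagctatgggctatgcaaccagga
Peak upstream of Pim1, chr17:29569881-29570180: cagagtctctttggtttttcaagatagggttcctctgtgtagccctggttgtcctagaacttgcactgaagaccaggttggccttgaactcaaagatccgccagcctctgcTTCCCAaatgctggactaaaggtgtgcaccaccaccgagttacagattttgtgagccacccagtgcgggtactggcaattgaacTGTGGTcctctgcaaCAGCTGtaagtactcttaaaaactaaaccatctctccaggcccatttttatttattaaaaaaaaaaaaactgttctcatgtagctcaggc
Peak upstream of Lef1, chr3:130722601-130722900: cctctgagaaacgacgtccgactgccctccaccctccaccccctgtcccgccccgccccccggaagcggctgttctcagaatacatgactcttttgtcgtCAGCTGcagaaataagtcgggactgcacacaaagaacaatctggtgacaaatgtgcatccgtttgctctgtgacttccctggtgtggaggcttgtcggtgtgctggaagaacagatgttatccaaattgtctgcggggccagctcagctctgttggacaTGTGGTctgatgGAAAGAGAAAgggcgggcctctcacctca
Peak in the Igh locus, chr12:115617310-115617609: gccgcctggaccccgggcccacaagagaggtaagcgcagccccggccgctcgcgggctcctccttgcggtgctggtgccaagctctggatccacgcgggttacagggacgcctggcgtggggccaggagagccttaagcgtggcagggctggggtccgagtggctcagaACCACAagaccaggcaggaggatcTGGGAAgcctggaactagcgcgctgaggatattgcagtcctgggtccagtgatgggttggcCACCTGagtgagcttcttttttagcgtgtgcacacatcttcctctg
The Hmgb2 peak, 4470 bases long, was centred in an intron of the neighbouring gene Galnt7, 65.8 kb downstream of the start of Hmgb2, which encodes a DNA-bending protein that assists the recombinase. Its stretch held both E-box spellings, a FOXO spelling and an IKAROS spelling. The Mcl1 peak lay 6.42 kb upstream of Mcl1, a survival gene of the BCL2 family, outside any gene, and held an ETS, a RUNX and an E-box spelling. The Runx1 peak lay 42.3 kb upstream of the gene for the transcription factor RUNX1 and held 2 E-box spellings, an IKAROS and a RUNX spelling. The Pim1 peak, 57.7 kb upstream of the gene for the kinase PIM1, held an E-box, an IKAROS and a RUNX spelling. The Lef1 peak, 90.6 kb upstream of the gene for the factor LEF1, held an E-box, an IRF and a RUNX spelling. The Igh peak, 12.3 kb from the V gene Ighv12-3, held an E-box, an IKAROS and a RUNX spelling. These matches are descriptions of the letters and not evidence that a factor was bound.

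The promoter-distant peaks were between 265 and 7800 bases long, with a median of 2265 bases and quartiles of 1483 and 3505 bases. Promoter peaks had a median of 2368 bases and quartiles of 1704 and 3365 bases, and peaks under 1 kb made up 10.01% of the promoter-distant peaks (854) against 5.37% of the promoter peaks (457). In total the promoter-distant peaks covered 22.85 Mb, 40.99% of all bases under H3K27ac, the promoter peaks 22.96 Mb and the longest domains 9.925 Mb.

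At the length limit, the longest members measured 7800 bases near Elk4, 7798 bases near Ttll12, 7791 bases near Gpcpd1 and 7790 bases near Pik3cg and Ncoa4. Among peaks more than 1 kb from a start, the next longer ones, left out by the rule, measured 7802 bases near Gm11102, 7803 bases near Vps13d, 7805 bases near Erv3, 7809 bases near Klf3 and 7811 bases near Ip6k3. The peaks on either side of the limit thus differed by a few bases. At the distance limit, the members closest to a start lay 1008 bases from Taf4a, 1009 bases from Fuca1, 1011 bases from Angpt2, 1021 bases from A630091E08Rik and 1025 bases from Loh12cr1, measured from the peak edge. The peaks just inside 1 kb, counted as promoter peaks, lay 1000 bases from Arhgap18, 995 bases from Gm10842 and from Pik3cd, 993 bases from Arl11 and 992 bases from Art1. The shortest members, of 265 to 317 bases, lay nearest to Smad2, Mbnl1, Guca1a, Sstr2 and Ppp1cb.

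The nearer edge of a promoter-distant peak lay at a median of 23.6 kb from the nearest protein-coding gene start, with quartiles of 9.24 and 56.3 kb. The edge of the farthest peak lay 2129 kb from the start of Cntnap5b. Relative to the nearest start, 3673 peaks (43.07%) were upstream and 4855 (56.93%) downstream. By position of the centre, 4093 peaks (47.99%) were in introns and 532 (6.24%) in exons of protein-coding genes, 356 (4.17%) in genes of other types and 3547 (41.59%) outside annotated genes. Protein-coding genes held 54.23% of the promoter-distant peaks (95% Wilson interval 53.17 to 55.29), 81.21% of the promoter peaks and 37.47% of all genome bases. Most centres thus lay in introns or outside genes, and the intron share was 31.1% when any overlap with an exon counted as exonic. Exons held the centres of 6.24% of them and make up 2.90% of the genome.

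**Figure D1:**
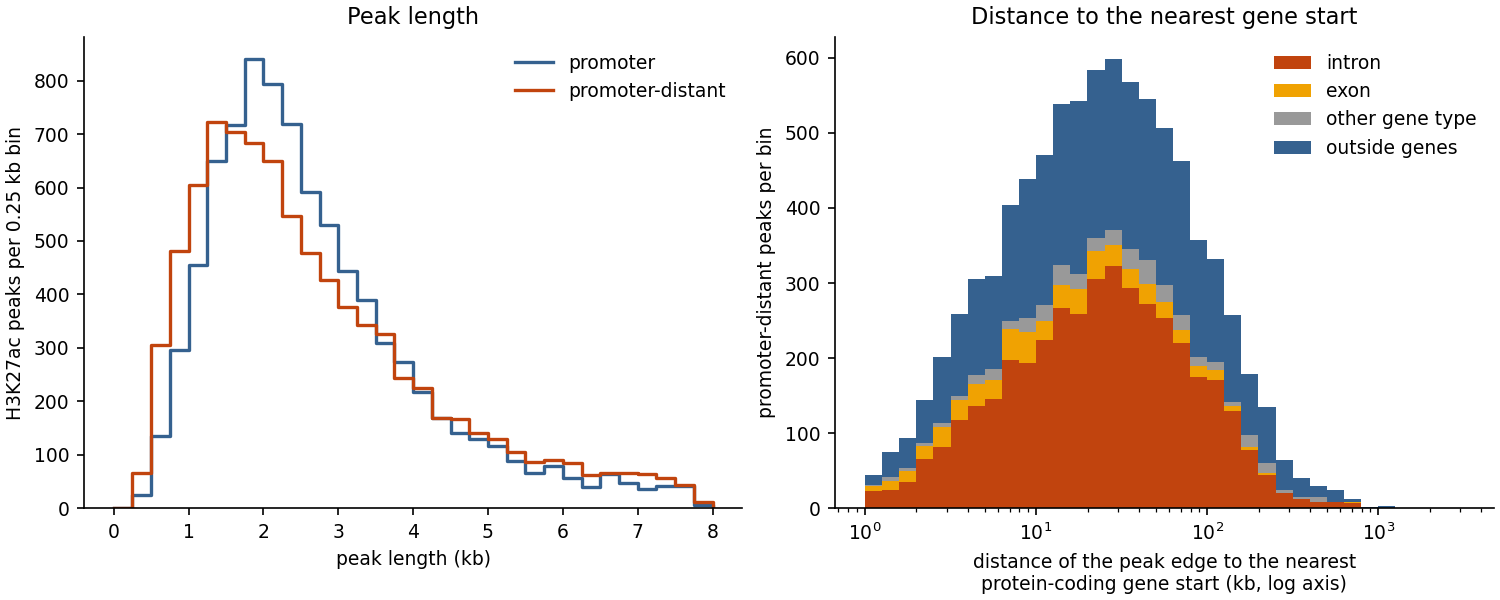
The left panel plots the number of H3K27ac peaks per 0.25 kb bin of peak length (kb) for promoter-distant peaks (red) and promoter peaks (blue), with more promoter-distant peaks below 1 kb. The right panel stacks promoter-distant peaks by the place of their centre over the distance of the peak edge to the nearest protein-coding gene start (kb, log axis), with the median at 23.6 kb and introns and sequence outside genes making up most of each bin.

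Some promoter-distant peaks by this rule sat at starts that the rule did not read, because it used 1 start for each gene. A further transcript start of a protein-coding gene lay within 1 kb of 1097 peaks (12.86%), the start of a lincRNA or processed transcript within 1 kb of 330 (3.87%) and that of an annotated miRNA hairpin within 1 kb of 44 (0.516%). Starts of any of these kinds, together with those of all other genes that are not protein-coding, were near 1545 peaks (18.12%). The other 6983 peaks (81.88%, 95% Wilson interval 81.05 to 82.69) had none of these starts within 1 kb. Further transcript starts of genes that are not protein-coding were not read.

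Base composition separated the promoter-distant peaks from promoter peaks and placed them closer to the genome at large. In the central 500 bases the median GC content was 48.0% and the median ratio of observed to expected CpG dinucleotides was 0.242. Promoter peaks had medians of 60.6% and 0.739, the longest domains 47.2% and 0.200, and all 5116421 windows of 500 bases in the genome 41.6% and 0.155. Windows rich in CpG, with a GC content of at least 50% and a CpG ratio of at least 0.6, made up 9.11% of the promoter-distant peaks (777), 64.7% of the promoter peaks (5503) and 0.723% of the genome windows. Of the 777 CpG-rich promoter-distant peaks, 444 (57.14%) had a further annotated start within 1 kb, and 1101 of the other 7751 (14.2%) did. The CpG-rich peaks were also shorter, with a median of 1704 bases against 2344 bases.

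Short spellings of 18 transcription factor motifs were then counted on both strands of the central 500 bases, beside all genome windows of the same length. The genome copy used was not masked for repeats, matches inside repeats were counted, and the GC content, which was higher in the peaks than in the genome, changes the number of matches of every spelling, so no excess or lack is attributed here to a factor. The spellings of B cell factors were AGGAAGT for the ETS core read by PU.1, CAGCTG for the first and CAGGTG for the second E-box, TCCC and GGGA with 2 bases between them for EBF1, TGTGGT for RUNX, TGGGAA for IKAROS, GAAA repeated after a gap of 2 bases for IRF and GTAAACA for FOXO. The others were CCGGAAG for generic ETS, TTC and GAA with 3 bases between them for STAT5, CTA and TAG with 4 between them for MEF2, CTTTGAA for LEF/TCF, TGA and TCA with 1 base between them for AP-1, AGATAA for GATA, CC and AGGGGGC with 3 bases between them for the CTCF core, GGGCGG for the GC box, CCAAT for NF-Y and AAGTCCA for HNF4. Matches of different spellings can share bases, such as those of EBF1 and IKAROS or of both ETS spellings, and were counted separately.

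Among the B cell spellings, EBF1, the first E-box and the ETS core had the highest ratios of promoter-distant peaks to genome windows, 2.33, 1.72 and 1.59. The ETS core of PU.1, a factor of B cell and myeloid progenitors, was found in 18.4% of promoter-distant peaks (95% Wilson interval 17.6 to 19.3), in 10.2% of promoter peaks and in 11.6% of genome windows. The first E-box, of the kind read by E2A, was found in 29.2% (28.2 to 30.2), 22.7% and 17.0%, and the second in 32.5%, 32.1% and 26.7%. The EBF1 spelling was rare, at 1.95% (1.67 to 2.26) of promoter-distant peaks, 2.09% of promoter peaks and 0.836% of genome windows. The IRF spelling was found in 9.96% of promoter-distant peaks, 5.63% of promoter peaks and 8.20% of genome windows, and the FOXO spelling in 8.10%, 4.28% and 7.38%. The ratios to the genome of both were small and changed with the windows or peaks used. That of IRF went from 1.21 to 1.02 among peaks at least as long as the median and to 1.32 in the central 200 bases. That of FOXO went from 1.10 to 1.003 in the central 200 bases. The RUNX and IKAROS spellings were near their genome level, with 33.1% against 31.2% for RUNX and 39.0% against 37.1% for IKAROS, although promoter peaks held RUNX in 19.3% and IKAROS in 32.9%. Of the 8 B cell spellings a promoter-distant peak held a mean of 1.72 kinds and a promoter peak 1.29, and 4 or more kinds were present in 525 promoter-distant peaks (6.16%) and in 198 promoter peaks (2.33%). The longest domains held a mean of 1.63 kinds, and 3.90% of them held 4 or more. They held the ETS core in 14.05%, the first E-box in 26.1%, EBF1 in 1.23%, IRF in 6.24% and FOXO in 6.13%. RUNX was found in 34.9%, IKAROS in 38.6% and the second E-box in 36.2% of the longest domains.

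Outside the B cell group, the GC box, read by factors of the SP and KLF families, was found in 18.7% of promoter-distant peaks, 62.4% of promoter peaks and 4.58% of genome windows. The generic ETS spelling was found in 5.45% of promoter-distant peaks, 17.6% of promoter peaks and 1.40% of genome windows. The CTCF core was found in 0.915%, 1.68% and 0.263%, and in 0.539% of the promoter-distant peaks at least as long as their median, which lowered the ratio to the genome from 3.48 to 2.05. The GATA spelling, read by GATA1 in red cell precursors and by GATA3 in T cells, was found in 27.1% of promoter-distant peaks and 11.7% of promoter peaks, below the 30.0% of genome windows. AP-1 stood at 14.6% against 14.3% in the genome, and STAT5 (15.0% against 17.8%), LEF/TCF (10.96% against 12.96%), MEF2 (7.90% against 8.47%), NF-Y (43.7% against 57.3%) and the liver factor HNF4 (6.38% against 7.73%) were below it.

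**Figure D2:**
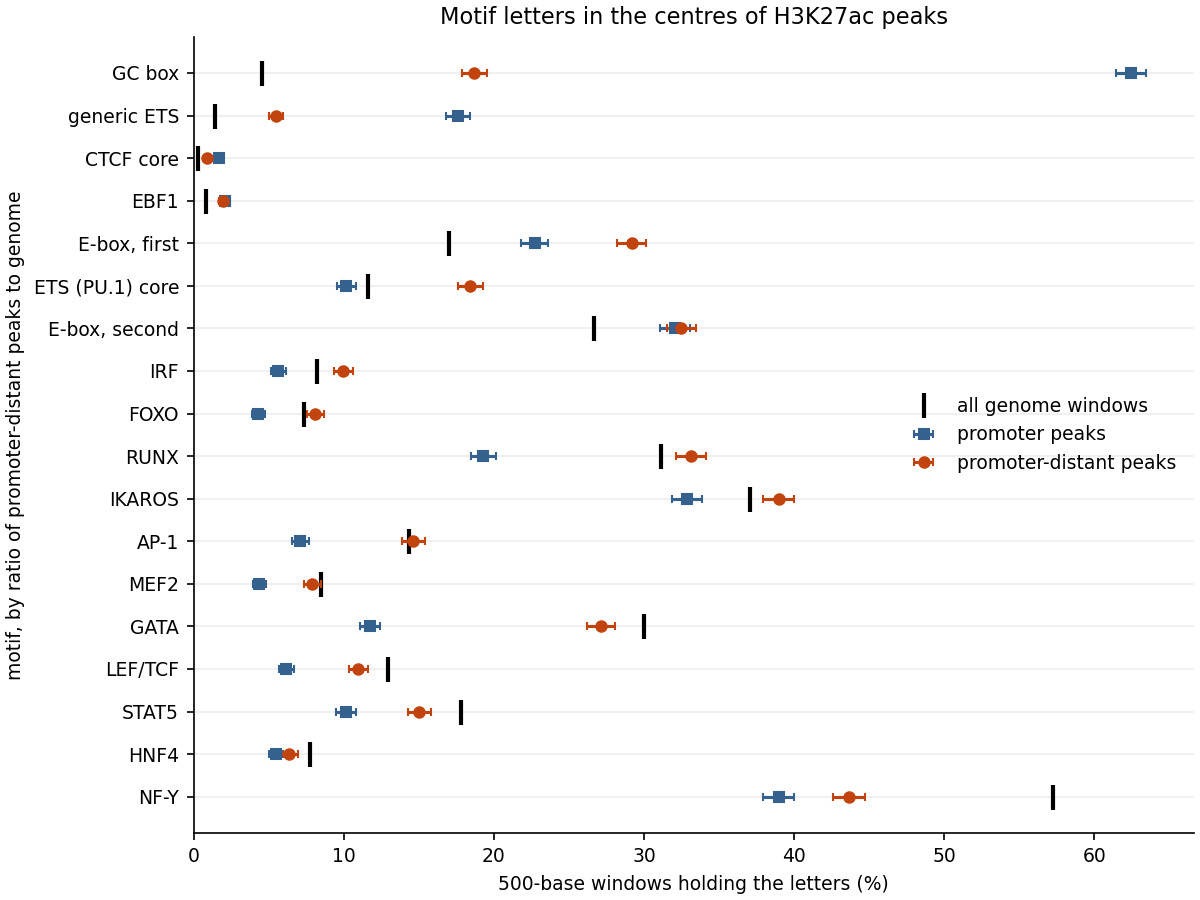
Share of central 500-base windows (%) that hold each motif spelling in promoter-distant peaks (red circles) and promoter peaks (blue squares), with 95% Wilson intervals as bars, and in all genome windows (black ticks), ordered by the ratio of promoter-distant peaks to genome. The ETS core reaches 18.4% in promoter-distant peaks against 11.6% of genome windows, whereas the GC box and generic ETS lie far higher in promoter peaks.

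The density of a spelling around the peak centre gave a second comparison. The centre, within 250 bases of the midpoint, was set against flanks from 1500 to 2000 bases away. The flanks lie outside a peak of the median length and begin inside a peak of more than 3000 bases, so they are not uniformly free of the mark. In the flanks the mean GC content around promoter-distant peaks was 45.1% against 48.9% in the centre. For promoter peaks these were 44.9% and 60.4%. In promoter-distant peaks the ETS core had 0.432 matches per kb in the centre and 0.263 in the flanks, a ratio of 1.65, whereas in promoter peaks the ratio was 0.892. The ratio of the first E-box was 1.39 against 1.14 in promoter peaks, that of EBF1 1.502 against 1.894, that of IRF 1.38 against 0.749 and that of FOXO 1.23 against 0.559. The ETS core, the IRF and the FOXO spellings were thus denser in the centre of promoter-distant peaks than in their flanks and sparser there in promoter peaks. RUNX, IKAROS and the second E-box were slightly sparser in the centre of promoter-distant peaks, with ratios of 0.918, 0.959 and 0.953. GATA had a ratio of 1.13 in promoter-distant peaks and 0.409 in promoter peaks. The GC box had the highest ratio in both, 3.97 and 11.4.

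**Figure D3:**
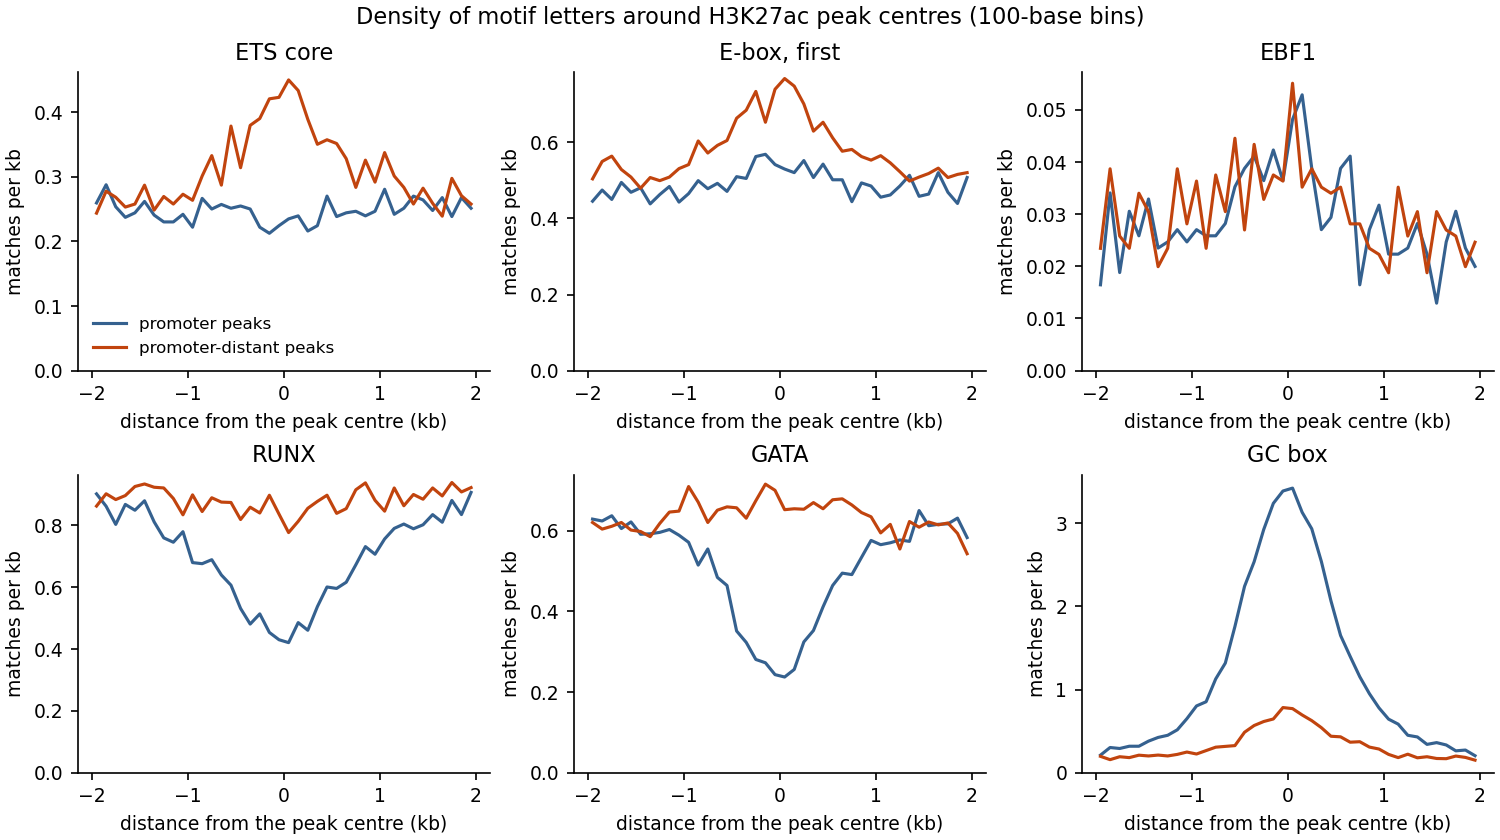
Matches per kb of 6 motif spellings in 100-base bins, from 2 kb before to 2 kb after the peak centre, for promoter-distant peaks (red) and promoter peaks (blue), each panel with its own axis from 0. The ETS core and the first E-box rise toward the centre of promoter-distant peaks, RUNX and GATA fall toward the centre of promoter peaks and stay nearly level in promoter-distant peaks, and the GC box rises in both, more so in promoter peaks.

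Composition and motif letters shifted with the distance of the peak edge from a gene start, while peak length changed little. The 1119 peaks under 5 kb from a start had a median length of 2229 bases and the 1080 peaks at 100 kb or more had one of 2136 bases. Between these bins the median GC content went from 49.2% to 46.4%, the share with a GC box from 26.4% to 13.1% and the share with a CTCF core from 1.52% to 0.370%. The CTCF core stood at 0.885%, 0.832% and 1.05% in the bins between them. The ETS core went from 15.3% to 20.9% and the first E-box from 28.5% to 32.1%, and the bins between them, for the ETS core, stood at 19.2%, 18.2% and 17.8%. The EBF1 spelling was lowest in the last bin, with 1.20% at 100 kb or more. It stood at 1.88% under 5 kb, 2.21% at 5 to 20 kb, 2.06% at 20 to 50 kb and 1.88% at 50 to 100 kb. The nearest gene had an H3K27ac peak at its own start for 66.8% of the peaks under 5 kb and for 63.7% of those at 100 kb or more, with 67.5% to 69.3% in the bins between.

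Promoter-distant peaks lay mostly beside genes whose own start was acetylated. The nearest start carried a peak for 5782 of the 8528 peaks (67.8%, 95% Wilson interval 66.8 to 68.8), while 37.1% of all bases of the genome had such a start as their nearest. For the bases and peaks within 100 kb of the nearest start the shares were 41.5% and 68.3%. Assigned to the nearest start within 100 kb, 7428 peaks fell to 4603 of the 22380 protein-coding genes (20.6%), and 1100 peaks were farther away. Of the 10212 genes with a peak at the start, 2984 (29.22%) had at least 1 promoter-distant peak, with a mean of 0.497 per gene. Of the 12168 genes without one, 1619 (13.31%) had a promoter-distant peak, with a mean of 0.193. Per Mb of sequence nearest to their starts, the genes with a peak at the start had 8.17 promoter-distant peaks and those without had 2.68. Most genes with a promoter-distant peak had 1 (2981 genes), 1322 had 2 or 3, 300 had 4 or more, and the highest number was 11.

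By the share of genes that were the nearest start of at least 1 promoter-distant peak, the transcription factors of pro-B cells came first among the lists, although not within 50 kb of the start or per Mb. At least 1 was nearest to 16 of 20 of them (80%, 43 peaks), against 20.6% of all genes, and 11 of 20 had 2 or more, against 7.25% of all genes. These genes are long, with a median of 81.5 kb, and a median of 128 kb lay nearest to their starts, against 15.4 and 47.7 kb for all genes, so more sequence was theirs to begin with. Per Mb of such sequence they had 17.3 peaks against 4.95 for all genes, which was fewer than for housekeeping genes (20.5), IL-7 signalling genes (20.2) and V(D)J recombination genes (18.4). The lists differ in size, length and setting in this way, and were chosen by function, so their counts describe these genes and no test was made.

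Bcl11a, which encodes a zinc finger repressor needed for early B cells, had 6 promoter-distant peaks from 22.2 to 84.1 kb from its start, all in its body, beside 2 of the longest domains of 9820 and 10716 bases. Runx1 had 5, from 39.7 to 96.1 kb, on both sides of its start. Mef2c, a MADS-box factor gene of lymphoid progenitors, had 4 from 14.5 to 79.0 kb, and no peak at its annotated start. Myb, whose product sustains the proliferation of blood progenitors, had 8 nearest to it, between 25.8 and 83.7 kb, 5 upstream and 3 downstream, none in the gene itself. Pax5, the B cell commitment factor, had 2, in its body at 8.49 and 38.2 kb. Foxo1 had 3, Ikzf1, Spi1, Irf4, Irf8 and Bach2 had 2 each, and Tcf3, Spib, Lef1, Sox4 and Myc had 1 each. Ebf1 and Erg were the nearest start of none although 3 promoter-distant peaks lay in the body of Ebf1 and 2 in that of Erg, because starts of other genes were closer to those peaks or the distance exceeded 100 kb. Ikzf3 had none by the nearest start and 1 in its body, and Mycn had none by either count.

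**Figure D4:**
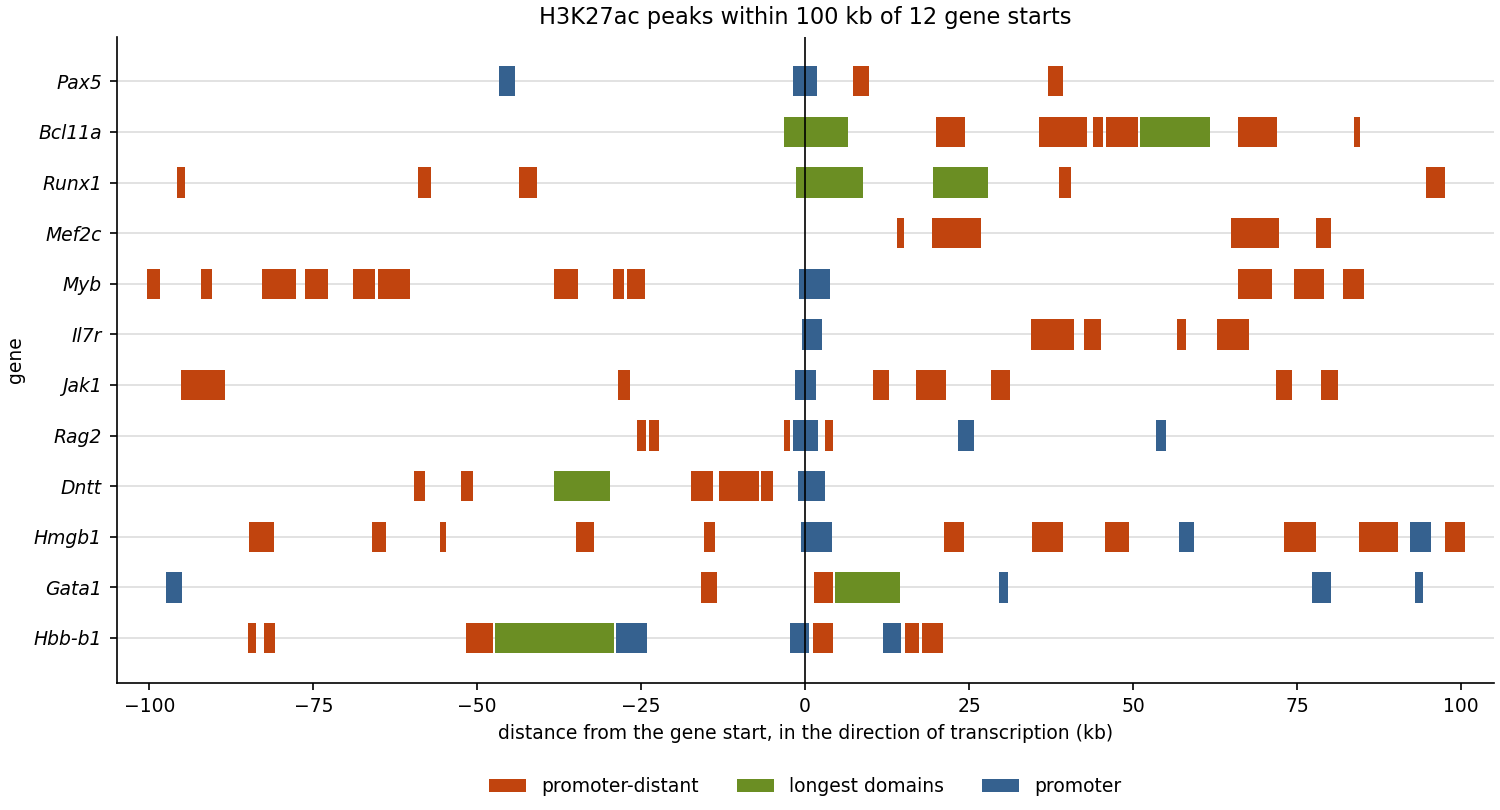
H3K27ac peaks drawn to scale within 100 kb of the starts of 12 genes (distance in kb from the start, in the direction of transcription; each bar is 1 peak), coloured by class as promoter-distant, promoter or longest domains. Promoter-distant peaks lie on both sides of Myb, Runx1, Jak1 and Hmgb1 and on the downstream side of Bcl11a and Il7r, and peaks of all 3 classes lie around the erythroid genes Gata1, whose own start has none, and Hbb-b1.

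Genes of IL-7 receptor signalling, the pathway that drives survival and division of pro-B cells, followed with 11 of 16 genes and 24 peaks, or 20.2 peaks per Mb. Il7r, the receptor gene, had 2 peaks downstream of its start at 37.7 and 43.8 kb, and the first of them was 6570 bases long. Jak1, the kinase bound to the receptor, had 6 from 11.6 to 80.0 kb, and 5 promoter-distant peaks lay in its body. Stat5a had 3 and Stat5b 1 of the peaks around this gene pair for the STAT5 factors. Ccnd3, a cyclin gene, had 3, the feedback inhibitors Socs2 and Cish had 2 each, Pim1 2, and Mcl1, Ccnd2 and Flt3 1 each. Il2rg, Jak3, Socs3, Bcl2 and Kit were the nearest start of none.

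Of the genes of the pre-BCR and of the B cell surface, 11 of 19 had a promoter-distant peak, with 14 peaks in all, or 14.5 per Mb, and these genes are short, with a median length of 6.92 kb. Blnk, the adaptor of the pre-BCR, Blk, a kinase of the SRC family, and Bst1 had 2 each, and Cd79b, Vpreb2, Lyn, Btk, Cd72, Ptprc, Cd38 and Cd93 had 1 each. The surrogate light chain genes Vpreb1 and Igll1 had none, and the peaks at or near their starts fell into the other classes. Vpreb1 lay beside one of the longest domains, of 10994 bases.

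In the list of V(D)J recombination genes, 7 of 15 had a promoter-distant peak, with 18 peaks or 18.4 per Mb. Rag2, which encodes the other subunit of the recombinase, had 4, at -24.9, -23.1, -2.77 and 3.67 kb from its start, where negative values are upstream, with lengths of 1385, 1595, 1037 and 1235 bases. The neighbouring Rag1 was the nearest start of none, but 4 promoter-distant peaks lay within 50 kb of it. Dntt, the gene of terminal transferase, had 3 upstream at 5.81, 10.1 and 15.7 kb, of which the middle one was 6093 bases long. The genes of the HMGB proteins had 5 (Hmgb1) and 3 (Hmgb2). Xrcc6, Prkdc and Poll, of end joining and repair synthesis, had 1 each, and Lig4, Xrcc4, Xrcc5, Dclre1c, Polm, Nhej1 and Atm had none. Of the genes of cohesin and CTCF, 5 of 13 (38.5%) had such a peak, and their 5.35 peaks per Mb were near the 4.95 of all genes. Among them were Wapl, the cohesin-release factor of the study, with 1 at 12.7 kb, and Ctcf with 1 at 12.2 kb. Pds5a had 2 and Nipbl and Stag1 had 1 each.

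Of genes used in later B cells and plasma cells, 8 of 15 had a promoter-distant peak and 5 of 15 had a peak at the start. Xbp1, a factor gene of plasma cells, had 3 from 8.08 to 34.4 kb away, and Prdm1, Cd80, Tnfrsf13c and Tnfrsf13b had 2 each. Genes of other lineages were lower, with 5 of 20 T and NK cell genes (6 peaks, 4.50 per Mb) and 1 of 18 myeloid genes (Cebpe, 1.14 per Mb). Of genes outside the blood system, 4 of 18 had one (4.19 per Mb), and none of the 18 had a peak at the start. By the nearest start the values for T and NK cell genes and for genes outside the blood system were near the 20.6% of all genes, but within 50 kb of the start 55% of T and NK cell genes had a promoter-distant peak, close to the 53.3% of the later B cell list.

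Erythroid and megakaryocyte genes stood above the background, with 7 of 15 genes and 9 peaks, or 15.4 peaks per Mb of sequence nearest to them. Gata1, the master factor of red cell precursors, had 2, at 2.81 kb downstream and 14.7 kb upstream, with one of the longest domains, of 9929 bases, centred 9.51 kb downstream. Alas2, the gene of the erythroid enzyme of haem synthesis, had 2 and Hbb-b1, the adult beta-globin gene, had 1, with a domain of 18157 bases centred 38.3 kb upstream of Hbb-b1. Slc4a1, Tfrc and Gp9 had 1 each. Housekeeping genes were similar by this measure, with 7 of 16 genes and 20.5 peaks per Mb, and all 16 had a peak at the start.

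The order of the lists depended in part on how peaks were counted. With any promoter-distant peak within 50 kb of the start, which 36.1% of all genes had, the share was 65% for pro-B transcription factors, 81.2% for IL-7 signalling, 73.7% for the pre-BCR list, 68.8% for housekeeping genes, 60% for erythroid genes, 53.3% for V(D)J recombination and for later B cell genes, 55% for T and NK cell genes, 61.5% for cohesin and CTCF genes, 16.7% for genes outside the blood system and 22.2% for myeloid genes. With a peak centre inside the gene, as in 12.7% of all genes, the share was 65% for pro-B transcription factors, 50% for IL-7 signalling, 26.3% for the pre-BCR list, 20% for V(D)J recombination and for later B cell genes, 18.8% for housekeeping genes, 15% for T and NK cell genes, 13.3% for erythroid genes, 7.69% for cohesin and CTCF genes, 5.56% for genes outside the blood system and 0% for myeloid genes. A share above that of all genes by the nearest start, within 50 kb and inside the gene was found for several lists. These were pro-B transcription factors, IL-7 signalling, pre-BCR, V(D)J recombination, later B cell and housekeeping genes. T and NK cell genes were above all genes within 50 kb but near the background by the nearest start (25%) and inside the gene. Erythroid genes were above all genes by the nearest start and within 50 kb and near the background inside the gene. When only peaks more than 5 kb from any start were used, which left 17.6% of all genes with one, pro-B transcription factors had 70%, IL-7 signalling genes 62.5% and housekeeping genes 43.8%.

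**Figure D5:**
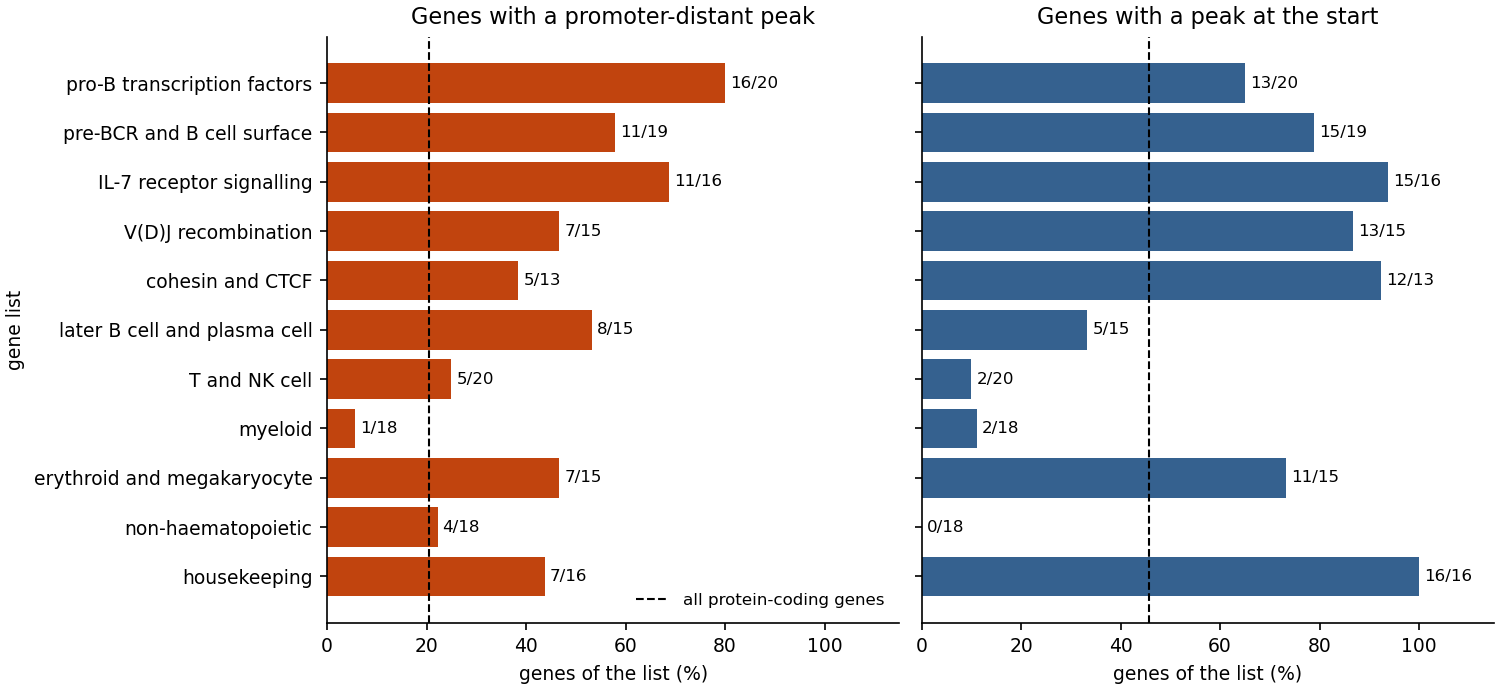
Share of the genes of each list (%) that are the nearest start, within 100 kb, of at least 1 promoter-distant peak (left, red) and that have any H3K27ac peak within 1 kb of the start (right, blue), with counts beside the bars and all protein-coding genes as the dashed line (20.6% left, 45.6% right). Pro-B transcription factors lead on the left with 16 of 20, and the erythroid list lies above the line in both panels.

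At least 8 promoter-distant peaks were nearest to the starts of 13 genes, of which 10 are named here, with those tied at 8 peaks taken in order of their symbols and 3 of them left unnamed. Most of the 10 were not on the lists. Klf13, of the KLF family of zinc finger factors, had 11, from 15.9 to 97.2 kb. 6430527G18Rik and Klhl25, an adaptor of a cullin ubiquitin ligase, had 10 each. F930017D23Rik and Mbnl1, a regulator of splicing, had 9 each. Cxcr4, the receptor that retains B cell progenitors in the bone marrow niche, had 8, of which 7 were upstream. Myb, Gm11016, Gm17546 and Rpl7a-ps3 also had 8 each. The first 6 of these and Myb had a peak at the start, and Gm11016, Gm17546 and Rpl7a-ps3, which are predicted genes or a ribosomal pseudogene symbol in this annotation, had none.

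Grouping of promoter-distant peaks was counted by joining neighbours. With neighbours within 12500 bases joined, 3447 peaks (40.42%, 95% Wilson interval 39.38 to 41.47) formed 1408 groups and 5081 stood alone, whereas 19.79% of promoter peaks were in such groups. The share was 26.2% with neighbours within 5 kb and 53.9% within 25 kb. Most groups had 2 peaks (996), 277 had 3, 89 had 4, 23 had 5 and 23 had 6 or more. The largest, at chr6:120505594-120596542, held 12 peaks with 47677 acetylated bases over 90.9 kb, of which 7 were nearest to Cecr2 and 5 to Cecr5. The second, at chr13:112832338-112891574, held 8 peaks nearest to Ankrd55 (7) and Map3k1 (1), and the third, at chr12:88136193-88180099, held 7 peaks nearest to 6430527G18Rik (5) and Gm6772 (2). Across chromosomes, the density ran from 1.19 peaks per Mb on X to 5.11 per Mb on chromosome 11, and no promoter-distant peak was listed on Y. Leaving out Y, which had 4 promoter peaks, the number of promoter-distant peaks for each promoter peak ran from 0.789 on X to 1.44 on chromosome 13.

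The immunoglobulin loci were taken as the span of annotated immunoglobulin genes with 50 kb on each side. Most immunoglobulin gene segments are not annotated as protein-coding, so their starts did not enter the rule and a peak on a V gene there counts as promoter-distant by construction. In the Igk locus, which is rearranged mainly in the later pre-B cells, 4 peaks were listed, 3 of them within the gene span of 3.17 Mb and 1 in the flank. The one at chr6:70674849-70681493, of 6645 bases, was centred 1.42 kb from Igkc, the constant gene. The one at chr6:70703464-70705271, of 1808 bases, lay in the flank and was centred 27.6 kb from Igkc, on the side away from the V genes. The one at chr6:70658646-70661136, of 2491 bases, lay between the V and J genes, 5.72 kb from Igkv3-1, the V gene next to the J genes. The fourth, chr6:69989959-69992717, of 2759 bases, was the only one within the V gene cluster, 17.3 kb from Igkv7-33. Acetylation of the Igk locus in these cells was thus listed at 3 places around the constant gene and the V to J interval and at 1 place in the cluster.

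The Igh locus had more, with 16 promoter-distant peaks, 15 of them inside the span of 2.69 Mb. They were spread over the V gene region from chr12:115232460-115233186, over Gm16683, to chr12:117039929-117040647, 0.571 kb from Gm16710, with lengths between 321 and 4181 bases. The longest, chr12:115845682-115849862, lay 6.29 kb from Ighv1-12, and chr12:116404030-116404900, 0.177 kb from Ighv8-6, held 5 of the 8 kinds of B cell spellings in its central 500 bases. A further peak, chr12:114661954-114669769, 0.863 kb from Gm16734, was one of the longest domains at 7816 bases, just over the length limit, and is therefore no member. The small Igl locus had 3 promoter-distant peaks of 906 to 1239 bases. Many V segments of these loci are near copies of each other, and how the authors treated reads that map to several places is not given in the sources used here, so peaks between V genes may be missing from the list.

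Use of VK genes near the Igk peaks was read from 6 VDJ-seq libraries of the Wapl(+/+) pro-B cells, a different genotype from that of the ChIP-seq library, as the percentage of VK-JK joints. Of 163 VK names, 97 matched the annotation, and they held 91.3 to 93.4% of the joints in each library. The 4 matched VK genes within 25 kb of a peak centre, Igkv3-1, Igkv3-2, Igkv3-3 and Igkv7-33, took 1.93, 2.44, 2.04, 2.00, 1.51 and 1.25% of the joints, a mean of 1.86% ± 0.420 (SD, n = 6), from 4.12% of the matched genes. The value follows the distance chosen, with 0.530% for the 1 gene within 10 kb and 4.24% for the 8 genes within 50 kb. Within 25 kb the 6 libraries lay within a factor of 2 of each other, whereas within 10 kb they ran from 0.278 to 1.22%. Most of the use within 25 kb came from Igkv3-2 with 1.18% ± 0.218 and Igkv3-1 with 0.530% ± 0.382, whereas Igkv7-33 had 0.0942% ± 0.124.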

How the data were processed

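H3K27ac peaks were analysed from 1 ChIP-seq library and VK use from 6 VDJ-seq libraries of a series of 33 samples. The deposited peak list gives chromosome, start and end on mm9, with a score of 0 for every peak. The aligner settings, peak caller, threshold and input are not given in the sources used here for this list, and the submitters' processing notes name Bowtie 1.0, Bowtie2 2.2.9, SAMtools 1.4, Juicer 1.8.9, R 3.3.3 and R 3.4.1 without assigning them to files. The VDJ-seq tables hold percentages of joints per V gene computed by the authors from reads with molecular identifiers, without their totals, so that counting intervals cannot be given for them.

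Peaks were set against gene rows of GENCODE vM1 and the NCBIM37 (mm9) genome with Python 3.11.15, numpy 2.4.6 and scipy 1.17.1, and plotted with matplotlib 3.10.9. A peak was promoter-distant when shorter than the 95th percentile of length and more than 1 kb, from its edge, from every protein-coding gene start. The distances to a start given for all peaks, and the distance bins, were measured from the peak edge. Distances given for single genes, positions in genes and the assignment to the nearest start within 100 kb used the peak centre. Shares carry 95% Wilson intervals, which cover counting error only. Peaks of 1 library are not replicates of a condition, so no p-value was computed. Motif letters were counted in the central 500 bases on both strands and in 5116421 windows tiling the genome, and profiles in 100-base bins to 2 kb on either side. Counting of motifs, distances and overlaps of positions was tested on simulated data with known answers, and the joining of neighbours into groups was not.

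The peaks, the 11 gene lists, the 18 motif spellings and the marker genes were chosen with earlier results of these data known. Genes named in the text are those of the lists, 10 of the 13 genes with at least 8 promoter-distant peaks (ties in order of symbol) and the nearest genes of peaks at the limits, in the largest groups and in the immunoglobulin loci. Syk and Ighm were not found as protein-coding genes in the annotation and were left out, and a few other genes of the lists, though counted, are not reported here by name. Columns of per-sample values left unused for want of a sample numbered 0. Alternatives varied the distance, the starts, the length limit, the window, the assignment of genes, the neighbour distance and the libraries. The other VDJ-seq tables were not used.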

Additional observations from a re-analysis of the deposited data

How the results depend on the processing

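The share of peaks counted as promoter-distant, 47.55%, became 48.08% with a distance of 0.5 kb, 45.57% with 2.5 kb and 41.3% with 5 kb. It was 44.58% with starts of every gene type, 41.43% with every protein-coding transcript start and 53.25% with the distance taken from the centre, and it was 44.69%, 49.81% and 50.34% with a length limit at the 90th percentile, at the 99th percentile and without a limit. The share in introns fell from 47.99% to 31.14% when any overlap with an exon counted as exonic. The median CpG ratio was 0.2267 over whole peaks. Genes with a promoter-distant peak numbered 8073 with any start within 50 kb and 2846 with the centre in the gene body, against 4603. The share of peaks in groups was 26.18% with neighbours within 5 kb, 53.95% within 25 kb and 39.11% for peaks over 5 kb from a start. VK use was 0.530% within 10 kb, which left 1 gene, and 4.24% within 50 kb, and lay between 1.75 and 1.98% without each library in turn. The number of motif spellings more frequent than in the genome was 12 in the 500-base and in the 200-base windows and beyond 5 kb, and 13 among peaks at least as long as the median, where the MEF2 ratio went from 0.933 to 1.03. No paired analysis was possible because the results come from no test between groups and the H3K27ac library has no replicate. The cause of these shifts was not tested beyond what each setting counts. Depth limits the list as a whole: without read counts a weak enhancer and an absent one cannot be told apart.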
